A study of Mus musculus with 4 samples.

Results

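Tubulin isotypes and stathmins were followed as a group of 10 genes, read by 15 of the 35411 rows of a mouse expression array that covers 20735 named genes. The group holds 2 alpha tubulins (Tuba1a and Tuba1b), 4 beta tubulins (Tubb2a, Tubb3, Tubb4a and Tubb5) and 4 stathmins (Stmn1, Stmn2, Stmn3 and Stmn4). A row belonged to it if the array's annotation gave it one of these symbols, with the older name Tubb4 read as Tubb4a. All 10 genes had a row. The genes were chosen by their measured intensities on these same arrays, so their differences are a description and carry no test.

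Total RNA whose labels give mouse CD4+ T cells as its source was hybridised in a single colour to 4 arrays, 1 for each group, and all mice are of the FVB/N background per the series' design. The groups are naive CD4+CD62Lhi cells of wild type mice, the same cells of mice labelled with miR-7 deficiency, and, for each genotype, cells labelled as activated in vitro for 48 hours with antibodies to CD3 and CD28 plus IL-2. Naive cells were isolated from spleen with magnetic beads; the labels do not say how the deficiency was made, which miR-7 genes it affects or in which cells. The descriptions call each sample representative of 3 biological replicates; 1 array per group was analysed, so every difference below is between 2 arrays, has no replicate check and carries no p-value.

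Microtubules are hollow filaments assembled from dimers of alpha and beta tubulin, and the several genes of each kind encode isotypes that differ mainly in their acidic tails. Stathmins are small phosphoproteins that bind free tubulin dimers and promote the shortening of microtubules. In T cells microtubules place the secretory apparatus beneath the synapse with the antigen-presenting cell and build the mitotic spindle, while in neurons and myelinating cells tubulin is among the most abundant proteins and serves axon growth and transport. Tubb3 and Stmn2 are used widely as neuronal markers, Tubb4a is known from myelinating oligodendrocytes, and Tubb5 and Stmn1 are known from dividing cells, lymphocytes among them.

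The mature miR-7 sequences are shown because they define the microRNA that is labelled deficient. They are credited to RefSeq (GRCm38.p6), 5′ to 3′, with the seed, bases 2 to 8, in capitals. The 3 miR-7 loci yield 2 mature forms with the same seed.
mmu-miR-7a-5p (Mir7-1, chr13:58392841-58392863, minus strand, and Mir7-2, chr7:78888295-78888317, plus strand): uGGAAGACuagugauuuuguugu
mmu-miR-7b-5p (Mir7b, chr17:56243017-56243040, plus strand): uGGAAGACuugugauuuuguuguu
No row reads a miR-7 locus, so the deficiency itself could not be checked on these arrays. Matches of the seed in tubulin and stathmin messengers were not analysed here.

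The promoters of 7 of the 10 genes were found in the RefSeq table (GRCm38.p6); those of Stmn1, Stmn2 and Stmn4 are named only. The 5 promoters printed here stand for the member with the largest difference measured on both arrays (Tubb4a) and the one with the largest lower bound (Stmn3), the alpha tubulin Tuba1a, the beta tubulin with the smallest measured difference in wild type (Tubb5), and Tubb2a, the gene with a TATA box match. Each is the last 150 bases before the annotated start, 5′ to 3′ on the gene's strand, with motif matches in capitals.
Tuba1a (chr15:98953502-98953651, minus strand): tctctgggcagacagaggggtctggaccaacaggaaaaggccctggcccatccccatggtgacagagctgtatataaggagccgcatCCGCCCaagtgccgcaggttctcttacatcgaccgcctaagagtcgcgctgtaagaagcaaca
Tubb2a (chr13:34078009-34078158, minus strand): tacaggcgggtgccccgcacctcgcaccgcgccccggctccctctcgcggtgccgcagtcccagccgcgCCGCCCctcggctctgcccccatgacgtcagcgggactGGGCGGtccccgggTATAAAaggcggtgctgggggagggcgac
Tubb4a (chr17:57087601-57087750, minus strand): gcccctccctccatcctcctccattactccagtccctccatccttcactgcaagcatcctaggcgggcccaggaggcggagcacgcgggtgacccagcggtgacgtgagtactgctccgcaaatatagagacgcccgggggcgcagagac
Tubb5 (chr17:35838302-35838451, minus strand): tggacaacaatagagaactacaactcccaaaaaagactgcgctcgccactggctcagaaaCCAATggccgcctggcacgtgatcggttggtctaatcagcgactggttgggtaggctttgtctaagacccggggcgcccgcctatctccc
Stmn3 (chr2:181314501-181314650, minus strand): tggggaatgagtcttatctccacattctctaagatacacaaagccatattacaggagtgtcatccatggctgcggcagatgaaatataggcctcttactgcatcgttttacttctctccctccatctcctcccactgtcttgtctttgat
Motifs were searched on both strands of the 250 bases before the start. The GC box (GGGCGG, read on the other strand as CCGCCC) was found in 4 of the 7 genes, once in Tuba1a and in 2 places each in Tuba1b, Tubb2a and Tubb3, against 32.7% of 32851 promoters. The CCAAT box (CCAAT, or ATTGG) was found in 3, Tuba1a, Tubb3 and Tubb5, against 33.8%, and the match of Tuba1a lies upstream of the bases shown. The TATA box (TATAAA) was found in 1, Tubb2a, against 12.4%. Part of the element bound by REST, a repressor of neuronal genes (TTCAGCACC), was found in 0, against 0.301%. Tubb4a and Stmn3 held none of the 4 motifs in this window. The GC content of the 7 windows ran from 48.8% in Stmn3 to 75.6% in Tuba1b, with a median of 52.4% over all promoters, and CpG counts ran from 3 in Stmn3 to 35 in Tuba1b, with a median of 6. These are descriptions of short windows and not sites shown to be bound.

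The values are normalized intensities on a linear scale, with medians of 200.2 to 204 per array. A floor was set for each array at the 95th percentile of 667 rows for chemosensory receptor genes. These genes were assumed to be mostly silent on every array, which was not tested. The floor was 984 for wild type and 985 for miR-7 deficiency on naive arrays, and 719.6 and 604 on those labelled activated. Values below the floor were raised to it before log2 differences were taken, which makes a difference with 1 array below the floor a lower bound. Genes were called apart at 2-fold or more, a log2 difference of 1. Where a gene has several rows, the row with the highest mean stands for the gene. The only measure of spread is the SD between rows of the same gene, 0.45 in both comparisons of labelled activated with naive arrays, 0.34 between the naive arrays and 0.35 between the arrays labelled activated. It is no replicate error.

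The arrays labelled activated went against their label. The 12 T cell markers summed to 25921 in wild type and 29082 in miR-7 deficiency on naive arrays, with 7 and 8 above the floor, and to 6154 and 7801 on those labelled activated, with 3 and 2 above it. Cd3e, part of the antigen receptor of T cells, was above the floor on both naive arrays and below it on both of these. Cd4 was below it on both of these too, but also on the wild type naive array, where it read 971. The 11 neuronal markers summed to 2491 and 2597 when naive, with 0 above the floor on each, and to 47971 and 72116 when labelled activated, with 9 and 10 above it. The 7 oligodendrocyte markers summed to 2531 and 2125 against 60621 and 49106, with 1 above the floor on each naive array and 7 on each of the others. The 7 astrocyte markers summed to 6510 and 5192, with 2 above the floor on each, against 19991 and 17265, with 6 and 7. The 2 astrocyte markers above the naive floor went the other way, Aqp4 by -1.34 and -1.02 and Glul by -0.50 and -0.14 on the log2 scale. No marker read 0 on any array. These sums move with every difference between naive and labelled activated arrays given below; their part in the results was not tested. In such bulk RNA, fewer cells of a type and less RNA per cell cannot be told apart.

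The naive arrays held part of the group and the arrays labelled activated held all of it. Above the floor were 5 of 10 genes on each naive array (Tuba1a, Tuba1b, Tubb4a, Tubb5 and Stmn1) and 10 of 10 on each array labelled activated. By row, the floor was passed by 7 of 15 in wild type and 8 of 15 in miR-7 deficiency on naive arrays, and by 13 of 15 on each array labelled activated. The 2 rows below the floor on all 4 arrays were second rows of Stmn2 and Stmn4. Over all named genes, more passed on the arrays labelled activated, whose floors are lower, though fewer of the T cell markers did. Out of all 20735 named genes, the naive arrays had 2849 (wild type) and 3057 (miR-7 deficient) above the floor. The arrays labelled activated had 4608 (wild type) and 5352 (miR-7 deficient).

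**Figure D1:**
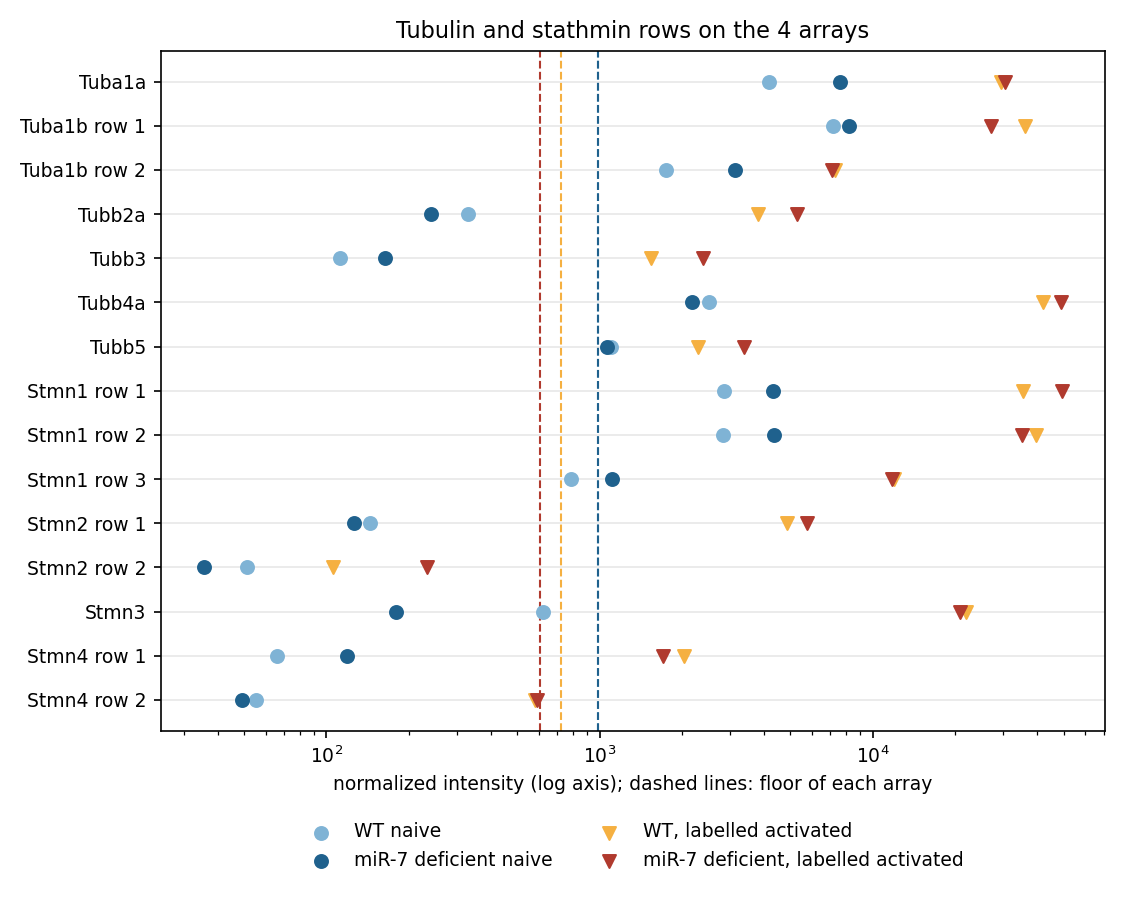
Normalized intensity (log axis) of the 15 tubulin and stathmin rows on each of the 4 arrays, with circles for naive arrays, triangles for arrays labelled activated and dashed lines for the floor of each array. In all 15 rows both triangles lie to the right of both circles; the floors of the naive arrays, 984 and 985, overlap in the plot.

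Tuba1a, an alpha tubulin prominent in developing neurons, is on chromosome 15. Its intensity was 4189 on the wild type naive array, 7589 on the miR-7 deficient naive array, 29391 on the wild type array labelled activated and 30424 on the miR-7 deficient array labelled activated. Both arrays labelled activated were above both naive arrays, which also differed between themselves. The difference between labelled activated and naive was 7.02-fold in wild type (log2 2.81) and 4.01-fold in miR-7 deficiency (log2 2.003).

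Tuba1b, the alpha tubulin made in most cells, was read by 2 rows. Its first row read 7145 in wild type and 8175 in miR-7 deficiency on naive arrays, and 36170.5 and 27140 on those labelled activated. The second row, which the array's annotation places on chromosome 2 and not with the first on chromosome 15, read 1757 and 3144 against 7270 and 7102. The rows shared their direction: the log2 difference between labelled activated and naive was 2.34 (5.06-fold) in wild type and 1.73 (3.32-fold) in miR-7 deficiency by the first row, and 2.05 and 1.18 by the second. Alpha tubulin messengers are nearly identical over much of their coding sequence, and whether the probes of Tuba1a, Tuba1b and Tuba1c tell them apart was not tested, since probe sequences were not used here.

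Of the 2 beta tubulins above the floor on all 4 arrays, Tubb4a, the isotype best known from oligodendrocytes and neurons, was farther apart. It read 2523 in wild type and 2183 in miR-7 deficiency on naive arrays, and 42090 and 48900 on those labelled activated. The naive arrays were close to each other, and the arrays labelled activated stood far above them. The difference was 16.7-fold in wild type (log2 4.06) and 22.4-fold in miR-7 deficiency (log2 4.49). Of the genes above the floor on both arrays compared, it ranked 3 of 2325 in wild type and 1 of 2581 in miR-7 deficiency.

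Tubb5, the beta tubulin of proliferating cells, was the measured member least apart. It read 1104 in wild type and 1068 in miR-7 deficiency on naive arrays, both just above the floor, and 2290.3 and 3372 on those labelled activated. The difference was 2.08-fold in wild type (log2 1.05) and 3.16-fold in miR-7 deficiency (log2 1.66). The wild type value lies just past the 2-fold threshold and leaves the count when the pair is quantile normalized on its own, at a log2 difference of 0.70. With the floor at the 99th percentile both genotypes leave it, wild type with no bound and miR-7 deficiency at 0.73.

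Tubb2a and Tubb3 were below the floor on both naive arrays, so they have lower bounds. Tubb2a, a beta tubulin abundant in brain, read 331 in wild type and 241 in miR-7 deficiency on naive arrays, and 3813 and 5266 on those labelled activated, at least 3.88-fold and at least 5.35-fold higher. Tubb3, the neuronal beta tubulin, read 112 and 164 when naive and 1548.5 and 2399 when labelled activated. Its bounds were at least 1.57-fold in wild type, short of the threshold, and at least 2.44-fold in miR-7 deficiency. With the floor at the 99th percentile the wild type call of Tubb2a (at least 0.55 on the log2 scale) and the miR-7 deficient call of Tubb3 (at least 0.24) are lost.

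Of the stathmins, Stmn1 by its first row was above the floor on all 4 arrays, and Stmn2, Stmn3 and Stmn4 were below it on both naive arrays. Stmn1, the member of the family found in dividing cells and in the developing brain, was read by 3 rows. The first read 2851 in wild type and 4319.7 in miR-7 deficiency on naive arrays, and 35358 and 49251 on those labelled activated. The second row read 2838 and 4363 against 39647 and 35225. Row 3 read 784, below the floor, and 1109 against 11923 and 11797.

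All 3 rows of Stmn1 were higher on the arrays labelled activated by a similar amount. In wild type the log2 difference was 3.63 (12.4-fold) by the first row, 3.80 by the second and at least 3.60 by row 3. In miR-7 deficiency it was 3.51 (11.4-fold), 3.01 and 3.41. By its first row Stmn1 ranked 10 of 2325 measured genes in wild type and 8 of 2581 in miR-7 deficiency.

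Stmn3, a stathmin of neurons, had the largest bounds of the group. It read 620 in wild type and 180.0 in miR-7 deficiency on naive arrays, both below the floor, and 22003 and 20918 on those labelled activated. It was at least 22.4-fold higher in wild type and at least 21.2-fold higher in miR-7 deficiency, ranks 4 of 5132 and 10 of 5828 among all genes above the floor on either array.

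Stmn2 and Stmn4, also neuronal stathmins, each had one row above the floor on the arrays labelled activated and one below it. For Stmn2 the first row read 144 in wild type and 126 in miR-7 deficiency on naive arrays, and 4837 and 5755 on those labelled activated, at least 4.92-fold and at least 5.84-fold higher. Its second row read 51.4 and 35.6 against 106 and 233, below the floor throughout. For Stmn4 the first row read 66.1 and 119 against 2039 and 1706, at least 2.07-fold and at least 1.73-fold higher, and the second 55.1 and 49.2 against 581 and 592, again below the floor. With the floor at the 99th percentile Stmn2 falls short of 2-fold in wild type (at least 0.89 on the log2 scale), and with its rows averaged or its lowest row taken it does so in both genotypes. The wild type call of Stmn4 is lost when the pair is quantile normalized on its own (at least 0.70), when rows are averaged (at least 0.15), and, with no bound left, by its lowest row or with the floor at the 99th percentile. Rows of one gene can read different parts or forms of its messenger, and the parts these rows read were not analysed here.

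Of the 10 genes, 9 were 2-fold or more higher on the array labelled activated in wild type, against 14.5% of the 5132 genes tested, and 0 were lower, against 8.81%. In miR-7 deficiency 9 were higher, against 11.1% of 5828, and 0 lower, against 14.8%. The exception was Tubb3 in wild type and Stmn4 in miR-7 deficiency, each through a bound that falls short. Since the genes were chosen for these differences, nothing is read from the counts beside the background. In each genotype 5 differences were measured on both arrays and 5 were bounds. The median log2 difference came to 2.32 for wild type and 2.21 for miR-7 deficiency, and the median of all genes tested was 0 in both. Tested genes with no usable bound count as 0 there. Without a floor the medians were 3.71 and 3.86 for the members and 0.34 and 0.25 for the genes tested. All genes, tested or not, then shifted by medians of -0.17 and -0.13.

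**Figure D2:**
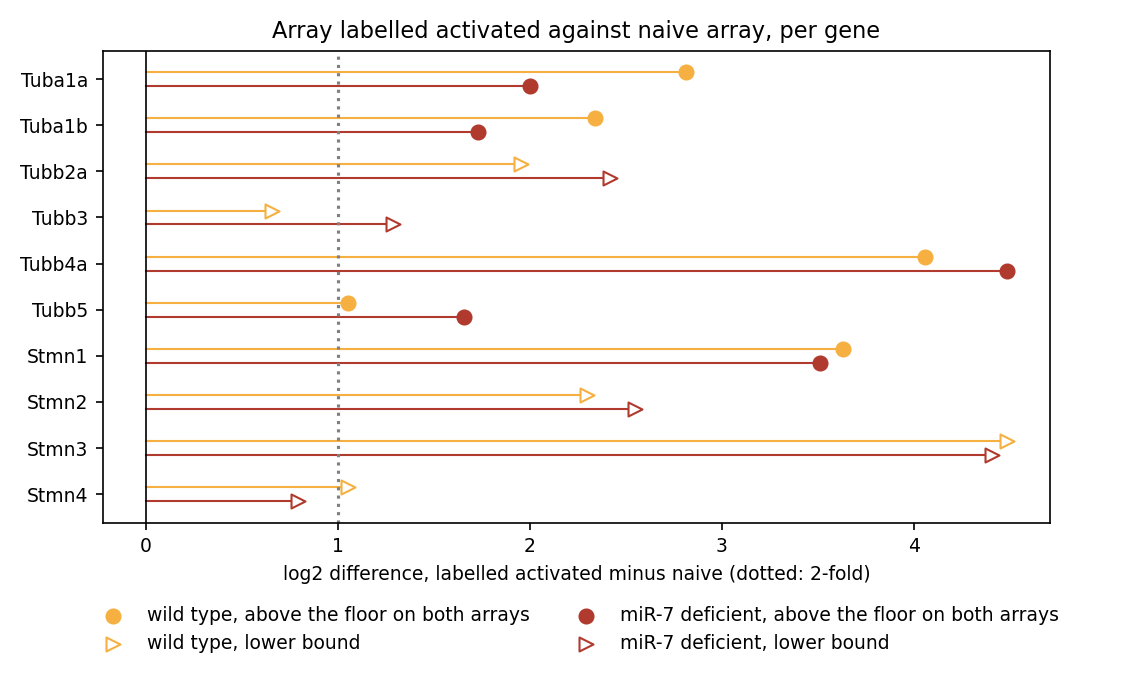
Log2 difference of labelled activated minus naive for each of the 10 genes, in wild type (yellow) and miR-7 deficiency (red). Filled circles are genes above the floor on both arrays, open triangles are lower bounds, and the dotted line marks 2-fold; Tubb4a and Stmn3 lie at 4.06 or beyond in both genotypes, and the bounds of Tubb3 in wild type and Stmn4 in miR-7 deficiency lie left of the line.

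The genotype comparison sets the array labelled miR-7 deficient beside that of wild type, once for naive cells and once for cells labelled activated. With 1 array each, genotype and other differences between samples cannot be told apart. Between the naive arrays 0 of the 5 genes tested were 2-fold apart, against 2.83% of 3461 genes. Tuba1a was higher in miR-7 deficiency by 0.86 on the log2 scale, 7589 against 4189. Stmn1 was higher by 0.60 and 0.62 by its first and second rows and by at least 0.17 by row 3. Except for that bound, these differences are larger than the SD between rows of 0.34. The median of all genes tested was 0.13, and 0.20 without a floor. Scaling made them smaller: with the trend removed or the pair quantile normalized alone, Tuba1a came to 0.65 and 0.66. The first row of Stmn1 came to 0.40 and 0.39, little above that SD.

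The other members gave smaller or divided differences between naive arrays. The rows of Tuba1b differed by 0.19 and 0.84, so the size of its difference depended on the row. Tubb4a differed by -0.21 and Tubb5 by -0.05, both within the SD between rows. Tubb2a, Tubb3, Stmn2, Stmn3 and Stmn4 were below the floor on both naive arrays and have no difference. Among them Stmn3 had the readings farthest apart, 620 in wild type and 180.0 in miR-7 deficiency; without a floor 21.3% of the receptor genes were also 2-fold or more apart between these arrays.

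Between the arrays labelled activated all 10 genes could be compared, and 0 were 2-fold apart, against 4.6% of 5723 genes. The 4 beta tubulins were each higher in miR-7 deficiency, Tubb3 by 0.63, Tubb5 by 0.56, Tubb2a by 0.47 and Tubb4a by 0.22 on the log2 scale. Of these, Tubb4a lies within the SD between rows of 0.35. The alpha tubulins did not share this direction, at 0.05 for Tuba1a and -0.41 and -0.03 for the rows of Tuba1b.

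Stathmins were divided between the arrays labelled activated. Stmn1 gave 0.48 by its first row, -0.17 by its second and -0.02 by row 3, so its rows disagree in sign. Stmn2 differed by 0.25, Stmn3 by -0.07 and Stmn4 by -0.26. Over all 10 genes 7 were higher and 3 lower in miR-7 deficiency, with a median of 0.23, and the median of all genes tested was 0. The neuronal marker sum was also higher on the miR-7 deficient array, 72116 against 47971, and the oligodendrocyte sum lower, 49106 against 60621. Much of the neuronal difference lies in Slc17a7, whose values are given under other observations, and Nrgn, at 22284 against 15125. Before any floor 8 of the 11 neuronal markers were higher and 3 lower, Gad2 among the lower. Of the 7 oligodendrocyte markers 1 was higher and 6 lower. The part of these sums in the differences of the members was not tested.

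**Figure D3:**
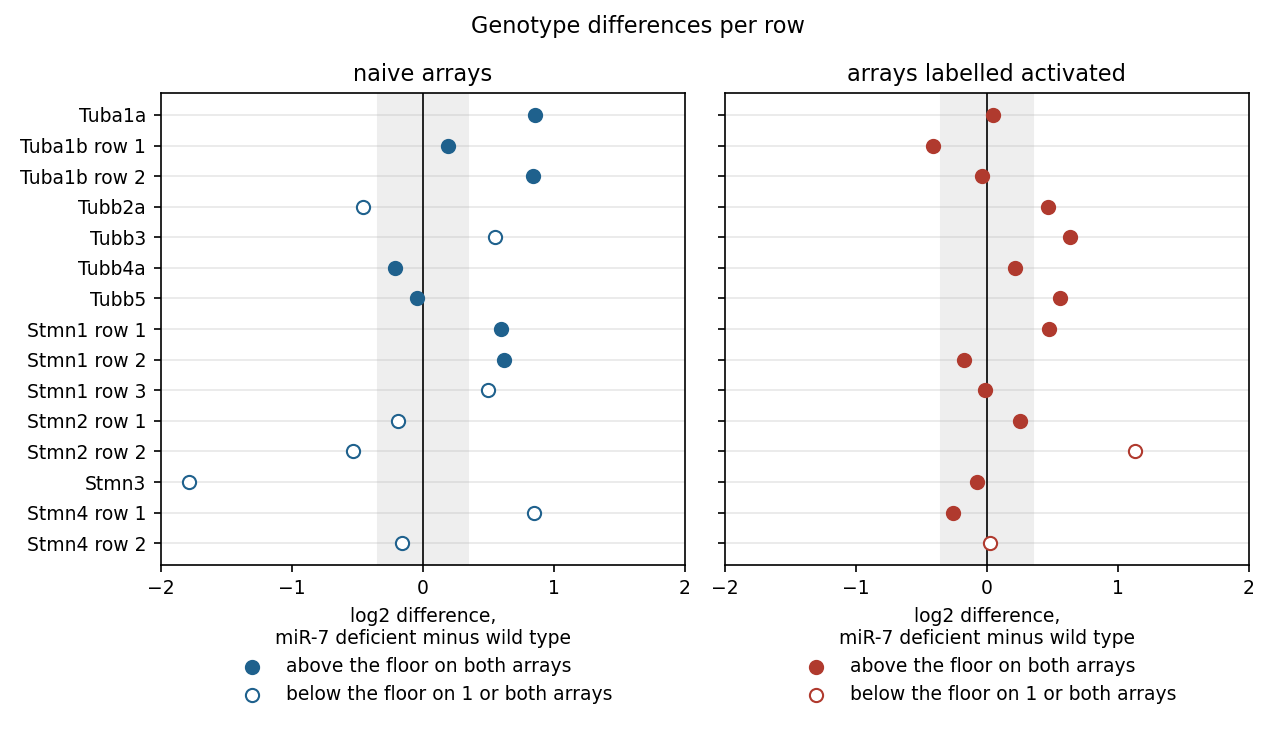
Log2 difference between miR-7 deficient and wild type arrays for each of the 15 rows, between naive arrays (left) and arrays labelled activated (right), before any floor; open circles have 1 or both arrays below the floor, and the grey band spans 1 SD between rows of a gene, 0.34 on the left and 0.35 on the right. No filled circle reaches a difference of 1. Among filled circles on the left, Tuba1a, the second row of Tuba1b and the first and second rows of Stmn1 lie right of the band. Among those on the right, Tubb2a, Tubb3, Tubb5 and the first row of Stmn1 do. The first row of Tuba1b lies left of the band in that panel.

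Other tubulins were read from a list. Of 14 listed, 11 had a row and 4 were tested between labelled activated and naive arrays in each genotype. Tuba1c, closely similar to Tuba1a and Tuba1b, read 3799 in wild type and 7047 in miR-7 deficiency on naive arrays, and 29164 and 20555 on those labelled activated, log2 differences of 2.94 and 1.54. Tuba4a, an alpha tubulin of nerve and muscle among other tissues, was higher by 3.04 in wild type and by at least 2.82 in miR-7 deficiency. Tubb4b, a broadly made beta tubulin, differed by 0.58 and 0.57, under 2-fold, and Tubg2, a gamma tubulin, gave no usable bound.

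Newly made tubulin is folded by chaperones. Of 21 prefoldin, CCT and tubulin cofactor genes, 5 of 19 tested were 2-fold or more higher in wild type and 0 lower, against 14.5% and 8.81% of all genes tested. In miR-7 deficiency 0 of 17 were higher and 1 lower, against 11.1% and 14.8%. These shares are the background for the lists that follow too. In wild type Pfdn2, a prefoldin subunit, was higher by 1.89, Tbca, a cofactor that binds beta tubulin, by at least 1.16, Cct8, a subunit of the CCT chaperonin, by 1.13 and Pfdn5 by at least 1.11. Cct2, another CCT subunit, differed by -1.22 in miR-7 deficiency, where it read 2436 on the naive array and 1046 on the array labelled activated. It read 1217 on the wild type naive array, which puts the naive genotype difference at 1.001. The list medians were 0.26 and 0.04.

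Of 14 proteins that bind the microtubule lattice, 13 had a row, and 5 of these were below the floor on both arrays of each genotype. Of the 8 tested, 5 were 2-fold or more higher in wild type, against 14.5%, and 3 in miR-7 deficiency, against 11.1%, with 0 lower in either. Mapt, the axonal protein tau, read 302 in wild type and 168 in miR-7 deficiency on naive arrays, and 7579 and 7733 on those labelled activated, at least 2.95 and at least 2.97 higher on the log2 scale. Map7d1, of a family that recruits kinesin, was higher by at least 2.67 and by 2.17, and Map1b, a protein of growing axons, by 1.62 and 1.39. The fourth named in wild type, Map7d2, was higher by at least 1.55. The list medians were 1.42 and 0.85.

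Of 10 plus-end proteins, which track or steady growing ends, 1 of 8 tested was 2-fold or more higher in each genotype, near the 14.5% and 11.1% of all genes, Clasp1 by at least 1.29 in wild type and Mapre3 by at least 1.23 in miR-7 deficiency. Of 13 enzymes that modify or sever microtubules, 2 of 2 tested in wild type and 2 of 3 in miR-7 deficiency were higher, too few tested to set beside a share. They were Sirt2, a tubulin deacetylase found in oligodendrocytes, by at least 1.48 and 1.03, and Agtpbp1, which trims glutamate chains from tubulin, by at least 1.25 and 1.21. Katna1, the catalytic subunit of the severing enzyme katanin, was lower in miR-7 deficiency by a bound of -1.08.

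Of 22 transport motor genes, light chains among them, 21 had a row. In wild type 8 of 15 tested were 2-fold or more higher, against 14.5%, and in miR-7 deficiency 6 of 17, against 11.1%, with 0 lower in either. Kif1a, a kinesin that carries synaptic vesicle precursors, read 147 in wild type and 156 in miR-7 deficiency on naive arrays, and 16205 and 11338 on those labelled activated, at least 4.04 and at least 3.53 higher on the log2 scale. The dynein light chains Dynlrb1 (3.03 and 2.49) and Dynll1 (2.25 and 2.64) and the kinesin light chain Klc1 (at least 2.07 and 2.04) were also higher. The list medians were 1.13 and 0.74.

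Genes of the mitotic spindle are known from cells in division. Of 20 listed genes 16 had a row, and 14 of the 16 were below the floor on both arrays of each genotype, Mki67 and Top2a, markers of cycling cells, among them. Kif23, a kinesin of cytokinesis, differed by -1.61 in wild type and by -1.49 in miR-7 deficiency, and Hmmr, a spindle protein, by -0.68 and 0.13. Of the 7 lists of microtubule genes, tubulin folding alone held a gene 2-fold apart between genotypes, Cct2 between the naive arrays. At 1.001 it lies barely past the threshold, and all genes shifted by a median of 0.04 between these arrays before any floor. Whether this call holds under other scaling was not tested.

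**Figure D4:**
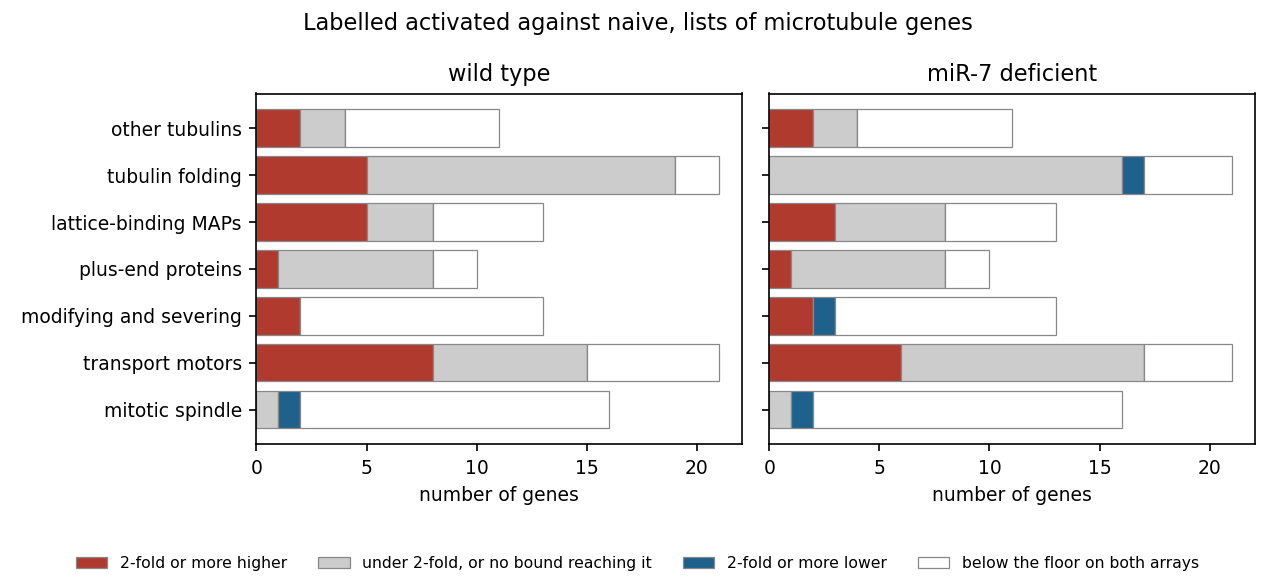
Number of genes with a row in each of 7 lists of microtubule genes by their difference, labelled activated against naive, in wild type (left) and miR-7 deficiency (right). Red bars are genes 2-fold or more higher, blue 2-fold or more lower, grey under 2-fold or with a bound that does not reach it, and white below the floor on both arrays; transport motors hold 8 and 6 red genes and the mitotic spindle list 0 in each.

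For the 5 members above the floor on all 4 arrays, the genes with the most similar pattern were sought among 1217 genes that exceeded every floor, by the root mean square difference of log2 intensities after each gene was centred on its mean over the 4 arrays. For Stmn1 they were Calm2, one of the calmodulin genes, at 0.0873, the noncoding RNA Norad at 0.140 and Cst3, the protease inhibitor cystatin C, at 0.168. Calm2 read 1054 in wild type and 1652 in miR-7 deficiency on naive arrays, and 14638 and 21178 on those labelled activated. The same 3 genes came nearest to Tubb4a, but farther off, Cst3 at 0.311, Norad at 0.390 and Calm2 at 0.419.

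The tubulins with smaller differences had other neighbours. Tuba1a lay nearest to Slc25a4, a carrier of adenine nucleotides in mitochondria, at 0.159, the catalytic subunit of protein kinase A Prkaca at 0.176, and the dynein light chain Dynlrb1 at 0.188. Tuba1b lay nearest to Tle5 at 0.0881, a transcriptional corepressor, the proteasome subunit Psmb7 at 0.100 and Pmm1 at 0.103, a phosphomannomutase. Tubb5 lay nearest to Pld3 at 0.0415, a phospholipase D family member of lysosomes, Pea15a at 0.110 and the actin-severing protein Cfl1 at 0.118. With 4 arrays that fall into 2 pairs, many genes can come this close, and the likeness is given as a description only.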

How the data were processed

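RNA of 4 samples was measured on single-colour NimbleGen arrays. The authors normalized them with RMA, per the submitters' processing notes, which give no version of it. The deposited values are normalized intensities on a linear scale from 21.7 to 64873, although a file header calls them log2. Each of 141644 deposited fold changes equals the larger intensity over the smaller as a ratio within 1e-05, and all 283288 intensities of the comparison tables match the value table to a relative tolerance of 1e-06. Growth and treatment protocols in the labels concern a culture of bacteria, so they say nothing of these cells.

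Gene names were taken from the comparison tables, and 31529 of 33663 named rows matched RefSeq gene numbers (GRCm38.p6); 1748 rows have no name. Row coordinates are not printed because no source used here names the build behind them. Floors, bounds and the threshold of 2-fold are as described above. A gene was tested if either array of the comparison put it above the floor. With 1 array per group no statistical test was run, and the number of arrays limits the precision. The steps were tested on simulated data. The members, the lists and the tests were chosen with earlier results of these data known. Every member is named; of each list, up to 4 genes per direction with the largest differences past 2-fold are named, with examples under it that were picked after their values were seen (Tubb4b, Tubg2, Hmmr, Mki67 and Top2a). Nearest patterns exclude antigen receptor segments, pseudogenes, predicted genes and transcripts with no name. Alternatives were median centring, removal of a lowess trend (fraction 0.3), quantile normalization of each pair, no floor, floors at the 99th and 75th percentiles, and the mean or the lowest row of a gene. The tools were matplotlib 3.10.9, statsmodels 0.14.6, scipy 1.17.1, pandas 2.3.3 and numpy 2.4.6 under Python 3.11.15.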

Additional observations from a re-analysis of the deposited data

Results flagged for a closer look

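For 3 of the 5 members above the floor on all 4 arrays, the difference between miR-7 deficient and wild type had opposite signs on the naive arrays and on the arrays labelled activated. With 1 array per group the difference between them was not tested. How many of all 2069 genes above every floor also had opposite signs was not counted. Nothing is therefore read from the 3 of 5. Tubb5 differed by -0.05 between naive arrays and by 0.56 between arrays labelled activated, 0.61 apart on the log2 scale. Tubb4a went from -0.21 to 0.22, 0.43 apart. Tuba1b went from 0.19 to -0.41, -0.61 apart, and its second row from 0.84 to -0.03. The naive differences of all 3 genes by their first rows, and the difference of Tubb4a on the arrays labelled activated, lie within the SD between rows of a gene.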

How the results depend on the processing

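No paired analysis was possible because each group has 1 array and the labels give no replicate numbers. In wild type, 9 of 10 members were 2-fold or more higher on the array labelled activated, and the count ran from 7 to 10 under 7 alternatives and fell to 5 with the floor at the 99th percentile, which puts more naive values at the floor. In miR-7 deficiency the count was 9 and ran from 7 to 10 under 8 alternatives. Between the naive arrays it was 0, and 1 (Stmn3, lower in miR-7 deficiency) both with no floor and with the floor at the 75th percentile. Between the arrays labelled activated it was 0 under all 8. No called difference of a member changed sign. Scaling moved the split of all genes apart: 62.2% were higher on the array labelled activated in wild type, and 75.2% after centring, 61.2% with the trend removed and 37.0% with the pair normalized alone. The same split was 42.8% against 52.0%, 53.2% and 36.3% in miR-7 deficiency, 71.4% against 62.8%, 30.9% and 32.6% between naive arrays, and 48.3% against 49.8%, 54.3% and 51.7% between arrays labelled activated. The sign of the naive difference of Tuba1b depends on scaling, at 0.15 after centring, -0.01 with the trend removed and -0.02 with the pair normalized alone. Its size depends on the row, at 0.84 by the lowest row. With no floor set, the wild type comparison put 36.7% of all genes 2-fold apart, and 31.7% of the receptor genes, which limits what low readings show.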

Other observations

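Of the T cell, neuron, oligodendrocyte and astrocyte markers, 4, 10, 7 and 7 were tested between the arrays labelled activated. Of these markers 5 were 2-fold or more apart, against 4.6% of 5723 genes, and the values are given with no explanation. In wild type and miR-7 deficiency, Slc17a7, a vesicular glutamate transporter of neurons, read 902 and 15853, and Rbfox3, a splicing factor of neurons, read 668, below the floor, and 1585. Tcf7, a T cell transcription factor, read 1039 and 3643. Gad2, an enzyme of GABA synthesis, read 1981 and 643, and Aldoc, an aldolase of astrocytes, read 8864 and 3633. The 10 tubulins and stathmins differed between the same arrays by 0.63 or less on the log2 scale in either direction.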
